A study of Arabidopsis thaliana with 24 samples.

Results

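Expression of 10 genes of aliphatic glucosinolate synthesis was followed in Arabidopsis thaliana plants that carry mutations in HAG2, MSI2, MSI3 or NASP, in various combinations. The 10 genes were taken by locus identifier for their role in the pathway, out of 32548 genes listed. They are the regulators MYB28 (AT5G61420), MYB29 (AT5G07690) and MYB76 (AT5G07700), the chain elongation genes BCAT4 (AT3G19710), MAM1 (AT5G23010) and MAM3 (AT5G23020), and the core structure genes CYP79F1 (AT1G16410), CYP79F2 (AT1G16400), CYP83A1 (AT4G13770) and SOT18 (AT1G74090). The study sequenced RNA from seedlings to compare the histone acetyltransferase and histone chaperone parts of the NuB4 complex. HAG2 is a type B histone acetyltransferase, MSI2 and MSI3 are WD40 histone-binding proteins, and NASP is a chaperone of histone H3. At 12 days of age there were 5 groups grown on Murashige and Skoog plates: the wild type Col-0, nasp-/-, a pair of nasp combinations (hag2-/- nasp-/- and msi2-/- msi3-/- nasp-/-), as well as hag2-/- msi2-/- msi3-/-. At 20 days there were 3 groups from a growth chamber: Col-0, msi2-/- msi3-/- and hag2-/- msi2-/- msi3-/-. Each group had 3 libraries, 24 in all, from plants in days of 16 h light and nights of 8 h at 22 °C. The labels name no alleles, and a hag2 single mutant at either age and a msi2 msi3 group at 12 days were not analysed here, so an interaction of nasp with the other mutations could not be tested. Nothing in the labels says that replicates were grown apart, so a p-value here weighs a difference against the spread of these samples alone, and that spread may be technical.

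Glucosinolates are the sulfur-rich defence compounds of the cabbage family, and the aliphatic ones of Arabidopsis are built from methionine. Methionine is first lengthened in a cycle opened by the aminotransferase BCAT4 and the methylthioalkylmalate synthases MAM1 and MAM3, then turned by CYP79F1 or CYP79F2 and by CYP83A1 into the core structure, to which SOT18 adds the last sulfate group. MYB28, MYB29 and MYB76 switch these genes on together with MYC factors, MYB28 and MYB29 being the main pair, and MAM3 and CYP79F2 are known for the long-chained compounds.

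The stretch of 250 bases before the annotated start of 4 of these genes is shown because the genes are read as a group under shared regulators, and because they differ in the elements found there. Positions are those of the TAIR10.1 assembly of RefSeq, and capitals mark the searched elements, on either strand. These are the G-box CACGTG, known as a MYC site, ACCNACC, an element of MYB sites, and GAGAC, the core of a sulfur-response element. No match of these 3 elements overlaps another in the 4 stretches. The sequences come from chr4:7992430-7992679 (minus strand), chr1:5604794-5605043 (plus strand), chr1:5608432-5608681 (plus strand) and chr5:2446419-2446668 (plus strand), each written from 5′ to 3′ toward the gene.
CYP83A1: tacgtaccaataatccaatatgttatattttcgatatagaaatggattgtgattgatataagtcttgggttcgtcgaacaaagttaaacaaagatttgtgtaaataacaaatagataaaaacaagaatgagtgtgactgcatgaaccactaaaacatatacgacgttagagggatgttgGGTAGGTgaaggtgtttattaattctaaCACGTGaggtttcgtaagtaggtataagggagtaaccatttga
CYP79F2: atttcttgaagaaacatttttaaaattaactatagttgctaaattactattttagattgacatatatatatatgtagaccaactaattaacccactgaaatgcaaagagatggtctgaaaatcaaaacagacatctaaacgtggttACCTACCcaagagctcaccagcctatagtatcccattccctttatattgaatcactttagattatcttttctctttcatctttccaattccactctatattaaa
CYP79F1: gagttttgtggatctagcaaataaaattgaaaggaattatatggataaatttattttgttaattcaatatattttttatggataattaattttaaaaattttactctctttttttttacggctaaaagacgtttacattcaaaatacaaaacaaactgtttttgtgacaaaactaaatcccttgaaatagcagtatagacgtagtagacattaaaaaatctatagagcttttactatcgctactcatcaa
MYB29: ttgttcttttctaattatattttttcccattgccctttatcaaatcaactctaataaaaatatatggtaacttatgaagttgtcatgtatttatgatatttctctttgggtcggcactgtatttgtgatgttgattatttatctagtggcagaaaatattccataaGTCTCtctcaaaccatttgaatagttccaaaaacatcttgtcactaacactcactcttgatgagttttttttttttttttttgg
CYP83A1 carried a G-box 37 bases and ACCNACC 64 bases before its start, CYP79F2 carried ACCNACC 97 bases before its start, and MYB29 carried GAGAC 79 bases before its start. CYP79F1, the neighbour of CYP79F2 on chromosome 1, held none of these letters in the window. Over the 10 genes the G-box stood in 1, ACCNACC in 2 and GAGAC in 1. Over all 27443 stretches of the same length the shares were 6.49%, 6.10% and 25.8%. A match is a run of letters and not a site shown to be used.

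The sum of the deposited values ranged from 19.6 to 21.0 M over the 12-day libraries and from 45.7 to 48.2 M over the 20-day ones. They are normalized read values whose depth is unknown. In the libraries of the groups named after it, NASP stood at 26.1% to 30.0% of the wild type, HAG2 at 6.43% to 17.9% and MSI3 at 16.2% to 30.8%. MSI2 stood at 45.3% of it where msi2, msi3 and nasp were combined, and at 46.2% in the msi2 msi3 group. Under the label hag2 msi2 msi3, however, it stood at 92.9% of the wild type at 12 days (adjusted p = 0.578), while at 20 days it stood at 82.1% (adjusted p = 0.0692), where limma, fitted to all genes, did not call it lower. Its values there were 475, 453 and 388 at 12 days, against 484, 462 and 471 in the wild type. These libraries are therefore named by their label throughout, also where a direction is drawn from them.

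All 10 genes passed the filter on low values (3 or more libraries at 1 or above) at both ages. Set per length, as the value per kilobase of the longest annotated transcript, the wild type at 12 days held most MAM1 (2471 ± 134, mean ± SD, n = 3) and CYP83A1 (2454 ± 115). The libraries of these genes overlapped. BCAT4 followed at 1629.6 ± 165, then SOT18 at 1135 ± 68.9, CYP79F1 at 1112 ± 97.8 and MYB28 at 1049.9 ± 10.5, neighbours whose libraries overlapped in turn. Below them MAM3 stood at 796 ± 26.1. CYP79F2 (274 ± 5.32) and MYB29 (254 ± 22.2) overlapped, and MYB76 was lowest at 28.9 ± 8.18. In the wild type at 20 days no neighbours overlapped, and the order per kilobase ran MAM1 (8944 ± 129), CYP83A1 (7283 ± 449.6), BCAT4, CYP79F1, MYB28, SOT18, MYB29, MAM3, CYP79F2 (145 ± 4.42) and MYB76 (119 ± 19.5). So MYB28, a transcription factor gene, stood at a level like that of the enzyme genes, and its relative MYB76 far below. The longest annotated CYP79F1 transcript has 2743 bases and that of CYP79F2 2018, and a shorter form in use would raise the CYP79F1 level. The sources used here do not state whether the values were already scaled by length. If they were, this order and the levels of the ratios per kilobase would change.

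MAM3 and CYP79F2, the genes known for long-chained compounds, stood lower beside their relatives at 20 days than at 12 days. Within each library, the CYP79F2 value per kilobase was 24.8% ± 2.71 of the CYP79F1 value in the wild type at 12 days and 4.72% ± 0.154 at 20 days (mean ± SD, n = 3). MAM3 stood at 32.3% ± 2.22 of MAM1 at 12 days and 3.78% ± 0.310 at 20 days. MYB29 went the other way, from 24.1% ± 1.96 of MYB28 to 51.0% ± 4.17. Age, growth conditions, instrument, read type and table changed together, so what moved these ratios cannot be told apart. CYP79F2 is known in Arabidopsis for expression in roots, and the summed value of 8 root markers was 2307 to 2372 in the wild type at 12 days and 289 to 345 at 20 days, where EXPA7 of root hairs was at 0. The part of root tissue in these ratios was not tested. CYP79F1 and CYP79F2 are 91.9% identical over their aligned coding bases and share 54 windows of 50 bases, which make up 1.70% and 2.89% of all their windows. How reads matching both were counted was not given in the sources used here, so the split between them is less certain than the other values.

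At 12 days, 8 of the 10 genes fell against the wild type in each combination of nasp with the other mutations, hag2 nasp as well as msi2 msi3 nasp, and none rose. The same 8 genes fell in both groups, namely the 3 regulators, BCAT4, MAM1, CYP79F1, CYP79F2 and CYP83A1, while MAM3 and SOT18 passed the test in neither. Of all genes tested, 33.2% were called lower and 33.1% higher in hag2 nasp, and 33.3% lower and 33.6% higher in msi2 msi3 nasp, by limma at an adjusted p below 0.05 over all genes. The median log2 difference over the 10 genes was -0.77 in hag2 nasp seedlings and -0.80 in msi2 msi3 nasp, beside a median over all genes that rounds to 0. Differences are on the log2(value + 1) scale, with the standard error of the fit, and both comparisons share the wild type libraries. The 8 calls held in each of these comparisons under all 14 alternatives run, 6 of which left out 1 library.

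MYB76 and MYB29 fell furthest of the 10 genes, and MYB28 by about as much as CYP79F1. MYB28 stood at 2012, 1972 and 1997 in the wild type libraries, at 1011, 1064 and 715 in hag2 nasp seedlings and at 961, 956 and 798 in msi2 msi3 nasp. The groups did not overlap, and replicate 3 of hag2 nasp was the lowest library. MYB28 differed by -1.12 ± 0.11 (adjusted p = 4.94e-08) in hag2 nasp seedlings and -1.14 ± 0.11 (adjusted p = 3.86e-08) in msi2 msi3 nasp. MYB29 went from 444, 398 and 475 in wild type libraries to 136, 148 and 63.3 in hag2 nasp seedlings and 133, 185 and 135 in msi2 msi3 nasp, with replicate 3 of hag2 nasp again the lowest library of its group. That left 26.4% and 34.4% of the wild type mean. The log2 differences were -2.0 ± 0.23 (adjusted p = 3.34e-07) and -1.55 ± 0.23 (adjusted p = 8.08e-06). MYB76, the accessory regulator, was low in the wild type already, at 42.3, 31.2 and 55.5. It stood at 4.02, 6.71 and 3.90 in hag2 nasp seedlings and 2.81, 5.70 and 3.96 in msi2 msi3 nasp, so every mutant library lay below every wild type library. Its log2 differences were the largest of the 10 genes, -2.90 ± 0.28 (adjusted p = 4.38e-08) and -3.09 ± 0.28 (adjusted p = 1.88e-08), although at values this low they depend on the pseudocount and were -1.81 and -1.88 with a pseudocount of 10. MYB29 and MYB76 also stood lower relative to MYB28 within libraries. Per kilobase, MYB29 was 13.3% ± 3.09 of MYB28 in hag2 nasp seedlings and 18.3% ± 3.02 in msi2 msi3 nasp against 24.1% ± 1.96 in the wild type, and MYB76 was 0.670% ± 0.151 and 0.589% ± 0.198 against 2.75% ± 0.766. These ratios are given as values with no test.

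**Figure D1:**
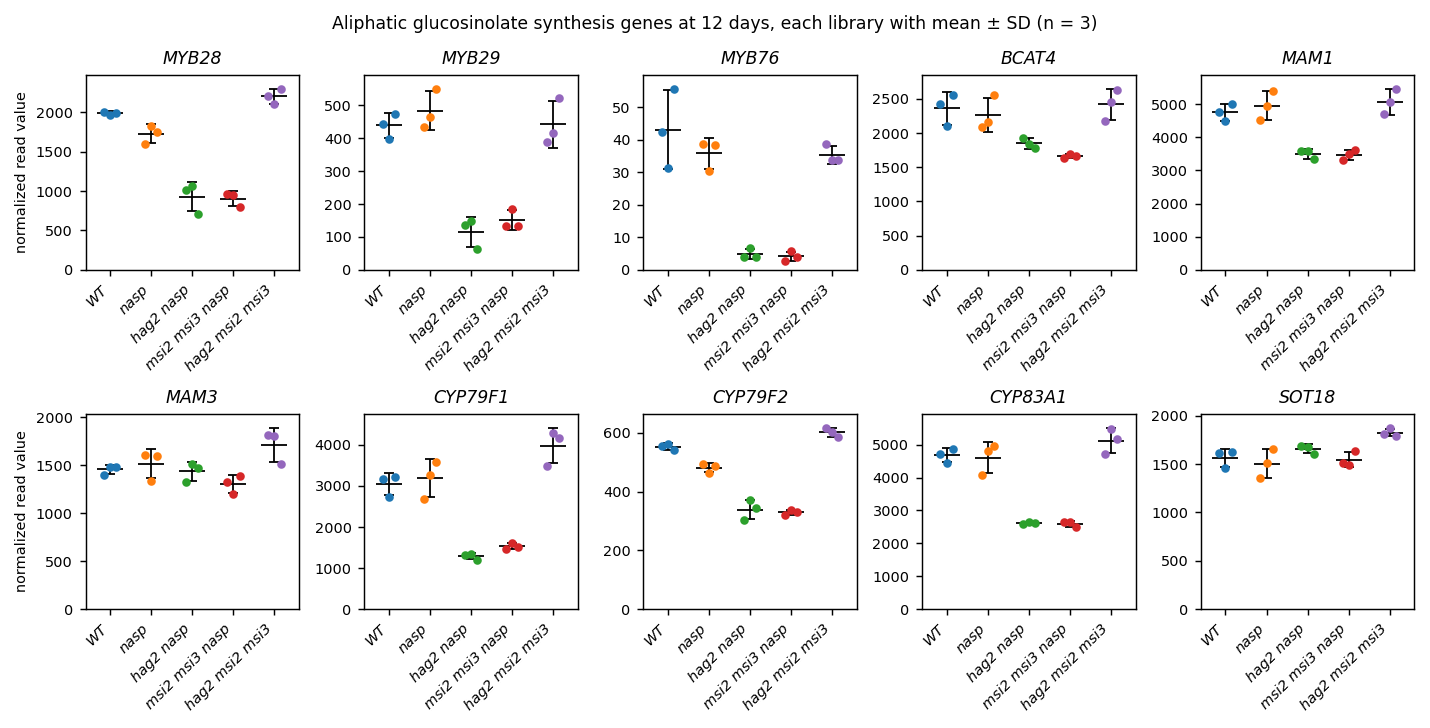
Normalized read value (linear axis from 0) of each of the 10 genes in every library at 12 days, with 1 panel per gene, dots for libraries, and bars for the group mean ± SD (n = 3). The hag2 nasp and msi2 msi3 nasp dots lie below all wild type dots for 8 genes, with no share of all genes taken. The SOT18 dots overlap those of the wild type in range in both groups, the MAM3 dots in hag2 nasp only.

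Of the chain elongation genes, BCAT4 and MAM1 fell by less than the regulators, and MAM3 did not pass the test. BCAT4, which makes the 2-oxo acid of methionine, stood at 2431, 2099.6 and 2563 in the wild type, 1932, 1847 and 1778 in hag2 nasp seedlings and 1637, 1697 and 1660.3 in msi2 msi3 nasp. It differed by -0.35 ± 0.08 (adjusted p = 0.00120) and -0.50 ± 0.08 (adjusted p = 3.35e-05). MAM1, which makes short-chained compounds, went from 4777, 4482 and 4995 in wild type libraries to 3570.4, 3595 and 3328 in hag2 nasp seedlings and 3321, 3486 and 3604 in msi2 msi3 nasp. All 6 mutant libraries lay below the wild type libraries, at 73.6% and 73.0% of the wild type mean. MAM1 differed by -0.44 ± 0.07 (adjusted p = 2.19e-05) and -0.45 ± 0.07 (adjusted p = 1.61e-05). MAM3 read 1401, 1486 and 1482 in the wild type, 1322, 1511 and 1475 in hag2 nasp seedlings and 1324, 1204 and 1393 in msi2 msi3 nasp. In hag2 nasp the libraries overlapped the wild type, with a log2 difference of -0.02 ± 0.08 (adjusted p = 0.828). In msi2 msi3 nasp they lay just below it, by -0.16 ± 0.08 (adjusted p = 0.103), and with quantile normalization this difference passed the test (adjusted p = 0.0292). Per kilobase MAM3 stood at 43.2% ± 3.92 and 39.6% ± 2.94 of MAM1 in these mutants, against 32.3% ± 2.22 in the wild type.

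Among the core structure genes, the oxidases fell and the sulfotransferase did not pass the test. CYP79F1, which turns the lengthened methionine into an aldoxime, stood at 3181, 2741 and 3226 in the wild type, 1311, 1351 and 1206 in hag2 nasp seedlings and 1473, 1621 and 1512 in msi2 msi3 nasp. All 6 mutant libraries lay below the wild type libraries, and the mutant means were 42.3% and 50.3% of the wild type. CYP79F1 differed by -1.24 ± 0.10 (adjusted p = 2.59e-09) and -0.99 ± 0.10 (adjusted p = 5.34e-08), the largest differences among the 7 enzyme genes. CYP79F2, which acts on long-chained methionine derivatives, went from 555, 562 and 541 in wild type libraries to 303, 369.9 and 343 in hag2 nasp seedlings and 319, 337 and 329.9 in msi2 msi3 nasp. Its log2 differences were -0.71 ± 0.07 (adjusted p = 4.91e-08) and -0.75 ± 0.07 (adjusted p = 2.45e-08), with no overlap between groups. CYP83A1, which oxidizes the aldoximes, stood at 4731, 4445 and 4878 in the wild type, 2577, 2654 and 2613 in hag2 nasp seedlings and 2644, 2659 and 2492 in msi2 msi3 nasp. It differed by -0.84 ± 0.07 (adjusted p = 6.72e-09) and -0.85 ± 0.07 (adjusted p = 5.92e-09), and its mutant libraries were close together. SOT18, which adds the last sulfate group, read 1616, 1456 and 1626 in the wild type, 1689.8, 1677 and 1604 in hag2 nasp seedlings and 1512, 1488 and 1633 in msi2 msi3 nasp. The groups overlapped. Its log2 differences were 0.08 ± 0.07 (adjusted p = 0.288) and -0.02 ± 0.07 (adjusted p = 0.812).

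Organ markers moved with these falls. The summed value of 5 leaf markers (RBCS1A, RCA, CA1, LHCB1.1 and PSBO1) lay, in the wild type, between 512463 and 562151, while it was 238484 to 259685 in hag2 nasp seedlings and 245303 to 284576 in msi2 msi3 nasp, and all 5 fell in both. The 8 root markers summed to 2307 to 2372, 861 to 942 and 664 to 766, with 7 fallen and the nitrate transporter gene NRT2.1 risen in both. The 4 flower markers summed to 103 to 282, 671 to 728 and 506 to 555, with 3 risen in both. Beside these counts, 33.2% and 33.3% of all genes were called lower and 33.1% and 33.6% higher (hag2 nasp first). No marker of these lists was at 0 in any group at 12 days. These are values of seedlings as a bulk, in which fewer cells of a type and less RNA per cell cannot be told apart, and the part of organ makeup in the falls was not tested.

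With NASP alone mutated, none of the 10 genes passed the test in limma. At an unadjusted p below 0.05, for which no share of all genes was taken, there was 1, CYP79F2. With voom weights 1 was called, again CYP79F2. Of all genes tested, 1.39% were called lower and 2.50% higher in nasp. CYP79F2 stood at 493, 463 and 486 in nasp against 555, 562 and 541 in the wild type, without overlap, by -0.20 ± 0.07 (adjusted p = 0.132) in the unweighted test and adjusted p = 0.0457 with voom weights. The voom fit also scaled each library by its summed value, and its median over all genes in nasp was -0.045. MYB28 also lay below the wild type in every nasp library, at 1599.5, 1833 and 1757, by -0.21 ± 0.11 (adjusted p = 0.383). The other 8 genes overlapped the wild type, and the median of the 10 was -0.04. The share of all genes without overlap was not taken. The leaf markers summed to 629613 to 707170 in nasp and 2 of 5 rose, the root markers to 2513 to 2648 with 0 of 8 called.

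Set against nasp in place of the wild type, to ask what the further mutations add where NASP is lowered, 8 of the 10 genes were lower in hag2 nasp seedlings and 9 in msi2 msi3 nasp, with none higher. Of all genes tested, 33.3% were called lower and 33.5% higher in the first of these comparisons, 33.3% and 33.6% in the second. MYB28 differed from nasp by -0.91 ± 0.11 and -0.94 ± 0.11, MYB29 by -2.14 ± 0.23 and -1.68 ± 0.23, and MYB76 by -2.67 ± 0.28 and -2.86 ± 0.28 (log2, hag2 nasp first). CYP79F1 differed by -1.29 ± 0.10 and -1.04 ± 0.10. The ninth gene was MAM3 in msi2 msi3 nasp, at -0.21 ± 0.08 (adjusted p = 0.0331), where the libraries overlapped (1612, 1339.9 and 1594 in nasp). Its call ended with voom weights (adjusted p = 0.144) and without nasp replicate 1 or 3 or msi2 msi3 nasp replicate 1 or 2 (adjusted p from 0.0533 to 0.148). SOT18 was called higher in hag2 nasp than in nasp only with voom weights (adjusted p = 0.0102) or without nasp replicate 3 (adjusted p = 0.0108).

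Between hag2 nasp and msi2 msi3 nasp none of the 10 genes differed by limma's test. At an unadjusted p below 0.05, for which no share of all genes was taken, there was 1, and with voom weights 0 were called. Of all genes tested, 3.07% were called higher and 3.26% lower in hag2 nasp. The gene at an unadjusted p below 0.05 was CYP79F1, at a log2 difference of -0.25 ± 0.10 (adjusted p = 0.144), with no overlap between the libraries. BCAT4 did not overlap either, at 0.15 ± 0.08 (adjusted p = 0.333) in hag2 nasp against msi2 msi3 nasp. No share of all genes without overlap was taken. MYB29 differed by -0.46 ± 0.23 (adjusted p = 0.280), and by -0.07 without hag2 nasp replicate 3.

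In the libraries labelled hag2 msi2 msi3 at 12 days, CYP79F1 rose and 0 of the 10 genes were lower by limma's test, beside 2.08% of all genes called higher and 1.96% lower. CYP79F1 stood at 3495, 4286 and 4158, above each wild type library, by 0.38 ± 0.10 (adjusted p = 0.0331). At an unadjusted p below 0.05, for which no share of all genes was taken, there were 3 genes, all higher. With voom weights 1 was called. The call did not survive leaving out wild type replicate 2 (adjusted p = 0.169) or 3 (0.0504) or hag2 msi2 msi3 replicate 2 (0.140) or 3 (0.115). SOT18 lay above the wild type in every library, at 1815, 1870.4 and 1795, by 0.22 ± 0.07 (adjusted p = 0.0723), and passed the test when only these 2 groups were fitted (adjusted p = 0.0370). MYB28, MAM3 and CYP79F2 did not overlap the wild type either, at log2 differences of 0.14 ± 0.11, 0.23 ± 0.08 and 0.12 ± 0.07 that did not pass the test. How many of all genes lay without overlap was not counted, so the lack of overlap adds nothing to the test. The median over the 10 genes was 0.12. The leaf markers summed to 580799 to 692921, the root markers to 2194 to 2902 and the flower markers to 196 to 347, and none of them was called.

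**Figure D2:**
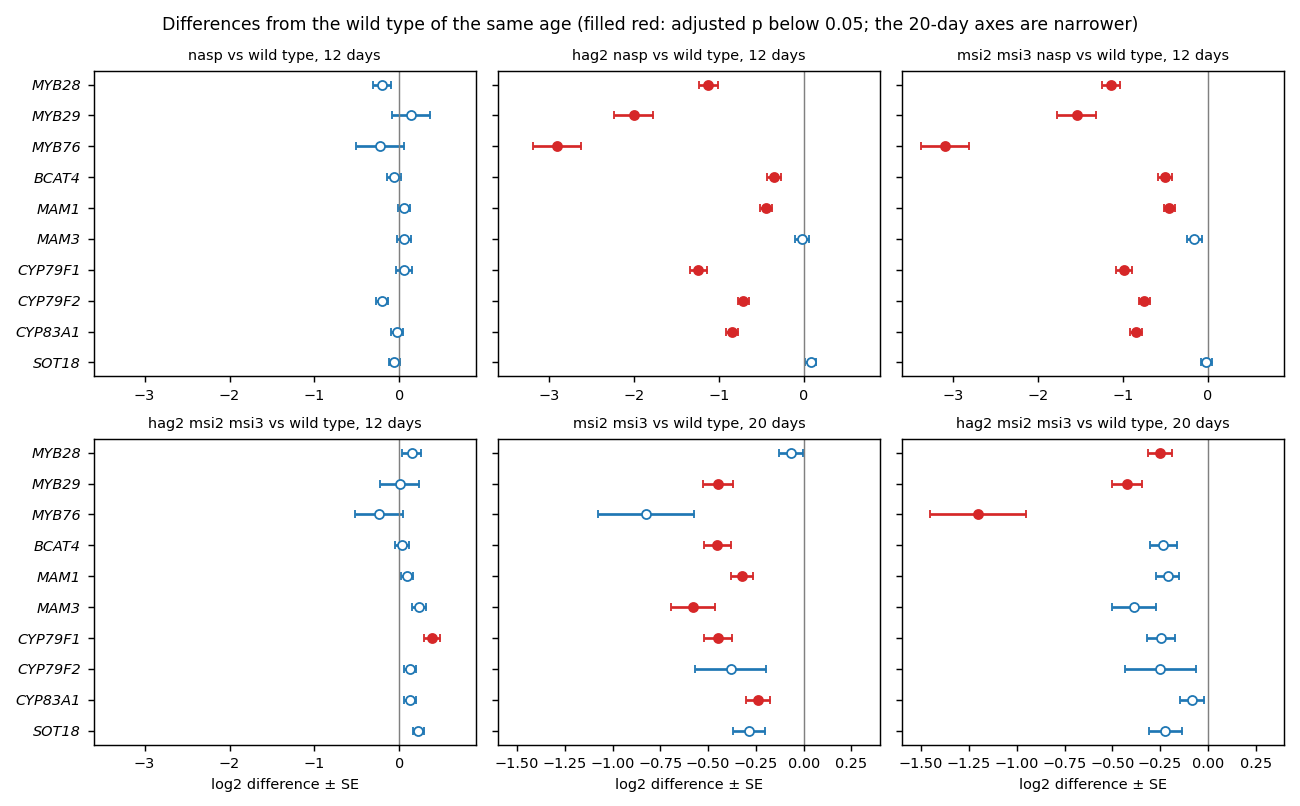
Log2 difference ± standard error of each of the 10 genes from the wild type of the same age, 1 panel for each mutant group. Filled red dots have an adjusted p below 0.05 over all genes tested, and the 20-day panels have a narrower axis. In hag2 nasp and msi2 msi3 nasp 8 dots are filled on the lower side, from -0.35 to -2.90 and from -0.45 to -3.09.

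At 20 days 6 of the 10 genes fell in msi2 msi3. These were MYB29, BCAT4, MAM1, MAM3, CYP79F1 and CYP83A1, and none rose. Over all genes, 4.15% were called lower and 3.45% higher. The median log2 difference over the 10 genes was -0.42 beside 0.01 over all genes. MYB29 stood at 1682, 1561 and 1712 in the wild type and 1236, 1258 and 1137 in msi2 msi3, a difference of -0.45 ± 0.08 (adjusted p = 0.00239) with no overlap. MYB28 overlapped, at 3376, 3686 and 3616 in the wild type and 3502, 3238 and 3466 in msi2 msi3, by -0.07 ± 0.06 (adjusted p = 0.607). MYB76 read 189, 143 and 197 in the wild type and 111, 128 and 66.5 in msi2 msi3, with replicate 3 the lowest. Its difference of -0.83 ± 0.25 (adjusted p = 0.0615) passed the test with a stricter filter on low values (adjusted p = 0.0476) or without msi2 msi3 replicate 2 (adjusted p = 0.0472).

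All 3 chain elongation genes fell in msi2 msi3, MAM3 included. BCAT4 went from 8468, 9613 and 8150.0 in the wild type to 5994, 6516 and 6651 in msi2 msi3, by -0.45 ± 0.07 (adjusted p = 0.00110). MAM1 went from 16936, 17229.9 and 17431 to 13153, 14222 and 13911, by -0.32 ± 0.06 (adjusted p = 0.00343). MAM3 went from 615, 666 and 572 to 412, 457 and 372, by -0.58 ± 0.11 (adjusted p = 0.00559), the largest of the 6 called differences. None of these groups overlapped, and these 3 calls and those of MYB29 and CYP79F1 held under all 14 alternatives. Of the core structure genes, CYP79F1 went from 8203, 8423 and 8689 to 6324, 6178 and 6047, by -0.45 ± 0.07 (adjusted p = 0.00154). CYP83A1 went from 13802, 14807 and 13099 to 12029.6, 11705 and 11576, by -0.24 ± 0.06 (adjusted p = 0.0284). That call ended with voom weights (adjusted p = 0.0534) and without wild type replicate 1 or 2 or msi2 msi3 replicate 2 or 3 (adjusted p from 0.0855 to 0.135). CYP79F2 differed by -0.38 ± 0.19 (adjusted p = 0.251), with msi2 msi3 libraries at 275, 213 and 193 all below the wild type ones (295, 284 and 301). SOT18 differed by -0.29 ± 0.09 (adjusted p = 0.0551), with libraries at 1815, 1547 and 1511 in msi2 msi3 and 1808, 2063 and 2061 in the wild type. It passed the test without msi2 msi3 replicate 1, the highest of its group (adjusted p = 0.0189).

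**Figure D3:**
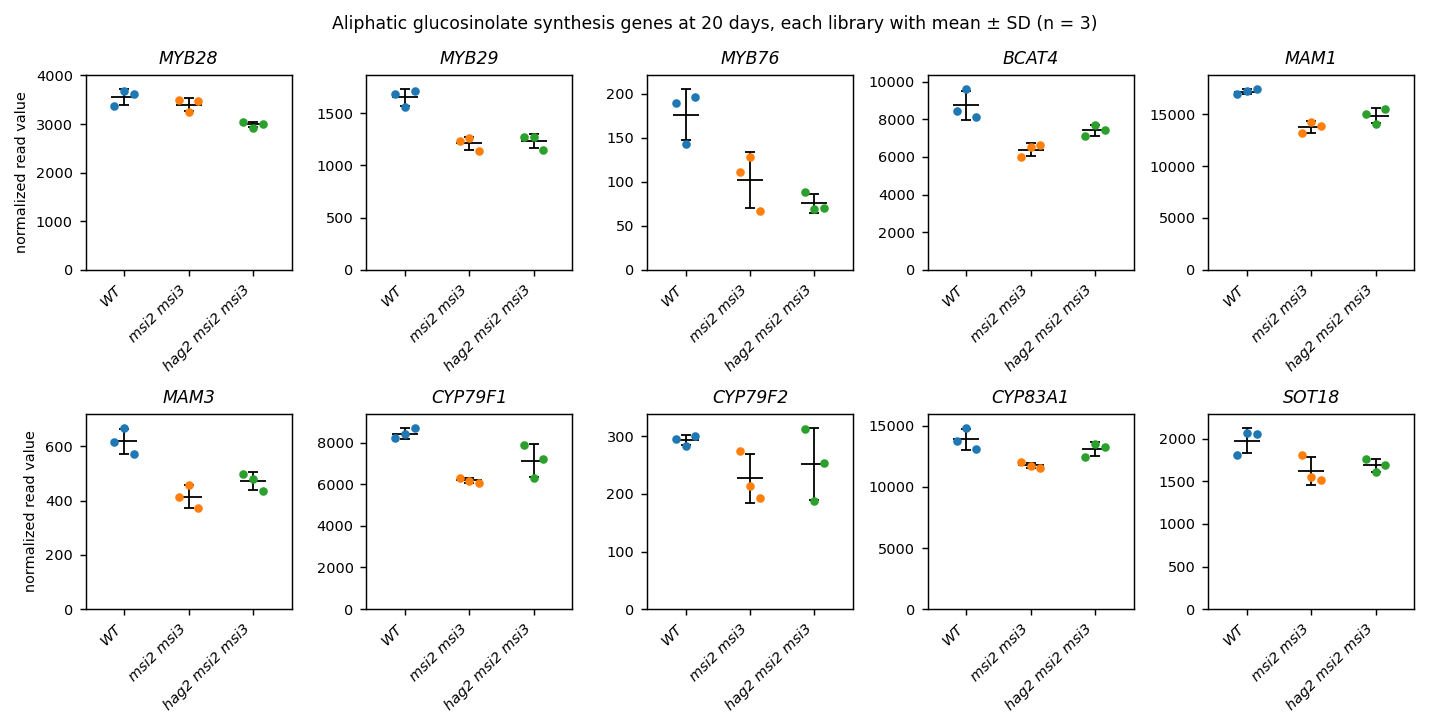
Normalized read value (linear axis from 0) of each of the 10 genes in every library at 20 days, with 1 panel per gene, dots for libraries, and bars for the group mean ± SD (n = 3). The msi2 msi3 dots lie below all wild type dots for each gene but MYB28 and SOT18, and those labelled hag2 msi2 msi3 for each gene but CYP79F2 and CYP83A1. The share of all genes without overlap was not taken.

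In the libraries labelled hag2 msi2 msi3 at 20 days, the 3 regulators fell and the enzyme genes did not pass the test. Over the whole table, 1.71% were called lower and 2.58% higher. MYB28 stood at 3048, 2928 and 2998, below each wild type library, by -0.25 ± 0.06 (adjusted p = 0.0345). Its call ended when only these groups were fitted (adjusted p = 0.0528) and without wild type replicate 2 or 3 or hag2 msi2 msi3 replicate 2 or 3 (adjusted p from 0.0876 to 0.142). MYB29 stood at 1274, 1268 and 1152, by -0.42 ± 0.08 (adjusted p = 0.00520), and this call held under all 14 alternatives. MYB76 stood at 88.3, 69.1 and 69.9, by -1.20 ± 0.25 (adjusted p = 0.0122), a call that ended without wild type replicate 1 or 3 or hag2 msi2 msi3 replicate 3 (adjusted p from 0.0551 to 0.0628). All 10 genes had a negative difference here, with a median of -0.25. BCAT4, MAM1, MAM3, CYP79F1 and SOT18 did not overlap the wild type, and their adjusted p lay between 0.0602 and 0.176. How many of all genes did not overlap was not counted, so this adds nothing to the test. MAM1 passed with quantile normalization (adjusted p = 0.0333) or voom weights (0.0312). CYP79F1 passed with quantile normalization (0.0417) or without hag2 msi2 msi3 replicate 1 (0.0127), the highest of its libraries at 7898, 6312 and 7193. The other enzyme genes stood at 84.9% (BCAT4), 86.5% (MAM1), 76.4% (MAM3), 85.9% (CYP79F2), 94.3% (CYP83A1) and 85.6% (SOT18) of the wild type mean.

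Between the libraries labelled hag2 msi2 msi3 and those of msi2 msi3 at 20 days, none of the 10 genes passed limma's test, and 0 did with voom weights. At an unadjusted p below 0.05, for which no share of all genes was taken, there were 4. Of all genes tested, 1.02% were called higher and 0.165% lower. BCAT4 was higher in all hag2 msi2 msi3 libraries (7139, 7709 and 7425) than in those of msi2 msi3, by 0.22 ± 0.07 (adjusted p = 0.190). CYP83A1 did not overlap either, at 0.15 ± 0.06 (adjusted p = 0.315). MYB28 was lower in all hag2 msi2 msi3 libraries, by -0.18 ± 0.06 (adjusted p = 0.211). No share of all genes without overlap was taken here either. CYP79F1 overlapped, at 0.20 ± 0.07 (adjusted p = 0.258). Both mutants share the wild type libraries, so their values against it are side by side and not separate measurements.

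Leaf markers did not move with the falls at 20 days, and flower markers did. The 5 leaf markers summed to 1407970 to 1609320 in the wild type, 1508630 to 1535420 in msi2 msi3 and 1526170 to 1663860 for the hag2 msi2 msi3 label, with 0 of 5 called in either. The 4 flower markers summed to 431 to 582, 1266 to 1399 and 979 to 1074, with 4 and 3 risen. The root markers summed to 289 to 345, 181 to 235 and 409 to 490, with 1 and 2 of 8 at 0 in the first groups, 2 fallen in msi2 msi3 and 1 risen in hag2 msi2 msi3. Among all genes, 3.45% were called higher and 4.15% lower in msi2 msi3, and 2.58% and 1.71% under the hag2 msi2 msi3 label. The part of flower tissue in the falls was not tested.

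The difference that the libraries labelled hag2 msi2 msi3 made from the wild type was lower at 20 days than at 12 days for 4 genes. The test is an interaction term of limma, from a joint fit apart from those of each age. By it, 0.258% of 22878 genes were called lower at 20 days and 0.564% higher. This fit took only the wild type and the libraries under that label, and made its own estimate of the spread. Its standard errors therefore do not combine those given for each age, and that of MYB28 was below its 12-day one. MYB28 moved from 0.14 ± 0.11 at 12 days to -0.25 ± 0.06 at 20 days, an interaction of -0.39 ± 0.08 (adjusted p = 0.0214). MAM3 moved from 0.23 ± 0.08 to -0.39 ± 0.11, by -0.62 ± 0.12 (adjusted p = 0.0214). CYP79F1 moved from 0.38 ± 0.10 to -0.25 ± 0.07, by -0.63 ± 0.13 (adjusted p = 0.0246). SOT18 moved from 0.22 ± 0.07 to -0.22 ± 0.09, by -0.45 ± 0.09 (adjusted p = 0.0335). In each of these the 12-day difference was positive and the 20-day one negative. Each call ended when certain single libraries were left out, 7 of 12 for MYB28 and for MAM3, 6 for CYP79F1 and 9 for SOT18, with adjusted p between 0.0507 and 0.107. All 4 ended without wild type replicate 2 of either age or hag2 msi2 msi3 replicate 3 of 20 days. Without wild type replicate 3 of 12 days the calls of MYB28, MAM3 and SOT18 ended, and without that of 20 days those of MYB28, CYP79F1 and SOT18. Without a 12-day hag2 msi2 msi3 library, replicate 1 ended MYB28, MAM3 and SOT18, replicate 2 ended MAM3, CYP79F1 and SOT18, and replicate 3 ended MYB28, CYP79F1 and SOT18. MAM3 ended also without wild type replicate 1 of 12 days, and SOT18 without hag2 msi2 msi3 replicate 2 of 20 days. The interaction was negative for all 10 genes, with a median of -0.41, and 9 had an unadjusted p below 0.05. The share of all genes at that unadjusted threshold was not taken, so this count has no background beside it. Age stands for growth conditions, instrument, read type and table as well, and these cannot be told apart.

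**Figure D4:**
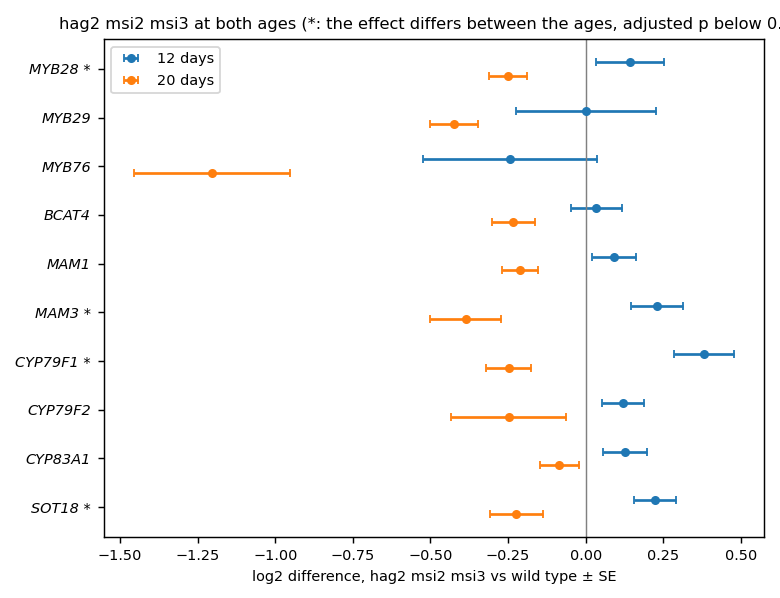
Log2 difference ± standard error of the libraries labelled hag2 msi2 msi3 from the wild type, at 12 days (blue) and 20 days (orange), for each of the 10 genes. The orange dot lies left of the blue dot for every gene, and asterisks mark MYB28, MAM3, CYP79F1 and SOT18, whose interaction had an adjusted p below 0.05.

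Other steps of aliphatic synthesis moved less uniformly in the nasp combinations. There, 33.2% of all genes were called lower and 33.1% higher in hag2 nasp, and 33.3% lower and 33.6% higher in msi2 msi3 nasp. Several of the counts below lie near these shares. Among 7 further chain elongation genes, 5 were lower and 2 higher in hag2 nasp, 4 lower and 2 higher in msi2 msi3 nasp, with medians of -0.47 and -0.38. BASS5, which carries the oxo acids into the plastid, went from 796 ± 59.1 to 535 ± 29.9 and 522 ± 40.5, by -0.57 ± 0.08 and -0.61 ± 0.08. BCAT3, an aminotransferase that closes the cycle, changed by -0.47 ± 0.05 and -0.45 ± 0.05. IPMI_LSU1, the large subunit of isopropylmalate isomerase, which also serves leucine synthesis, rose by 0.37 ± 0.05 and 0.33 ± 0.05. Of 8 further core structure genes 7 were tested, with 5 higher and 1 lower in hag2 nasp, 3 higher and 1 lower in msi2 msi3 nasp. SOT16, the sulfotransferase known for indole glucosinolates, went from 1549 ± 85.0 to 4477 ± 348 and 4695 ± 754, by 1.53 ± 0.10 and 1.59 ± 0.10. The gamma-glutamyl peptidase gene GGP1, which serves both branches, rose by 1.44 ± 0.14 and 1.18 ± 0.14. SOT17, the close relative of SOT18, rose by 0.98 ± 0.10 and 0.64 ± 0.10, and the glucosyltransferase gene UGT74C1 changed by -0.67 ± 0.07 and -0.66 ± 0.07. GSTF11 was listed at 0 in all libraries, those of the wild type included, which can be lack of expression or of counting.

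Later steps in the pathway changed in both directions in the nasp combinations. Among all genes there, 33.1% (hag2 nasp) and 33.6% (msi2 msi3 nasp) were called higher, and 33.2% and 33.3% lower. Of 9 side-chain genes 8 were tested, with 4 risen and 1 fallen in each nasp combination. GSL-OH, which hydroxylates the side chain, went from 11063 ± 505 to 45045 ± 4287 and 44707 ± 8332, by 2.02 ± 0.11 and 2.0 ± 0.11. FMO_GS-OX2, an S-oxygenase gene, rose by 2.06 ± 0.09 and 1.63 ± 0.09. AOP2 was not analysed here. Of 8 transport and breakdown genes, 3 were higher and 3 lower in hag2 nasp, 4 higher and 4 lower in msi2 msi3 nasp. The hag2 nasp counts are near the shares of all genes. TGG1 and TGG2 encode the myrosinases that break glucosinolates down in damaged leaves. TGG1 went from 66473 ± 2568 to 7018 ± 568 and 7001 ± 862, by -3.25 ± 0.10 and -3.25 ± 0.10. TGG2 went from 22203 ± 324 to 1279 ± 126 and 1624 ± 344, by -4.12 ± 0.12 and -3.80 ± 0.12. ESM1, which steers breakdown toward isothiocyanates, changed by -1.90 ± 0.14 and -2.33 ± 0.14.

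Sulfate assimilation and indole glucosinolate genes changed in both directions in the nasp combinations, where 33.1% and 33.6% of all genes were called higher. Lower calls made up 33.2% and 33.3% of all genes. Of 11 sulfate genes 8 were higher and 2 lower in hag2 nasp, 7 higher and 2 lower in msi2 msi3 nasp, with medians of 0.75 and 0.40. APR3, an adenosine phosphosulfate reductase gene, went from 2710.0 ± 429 to 8473 ± 1453 and 7149 ± 915, by 1.64 ± 0.14 and 1.40 ± 0.14. The root sulfate transporter gene SULTR1-1 went the other way, from 65.2 ± 14.8 to 4.91 ± 2.73 and 2.88 ± 0.0816, by -3.56 ± 0.28 and -4.07 ± 0.28. In the indole branch, 4 of 8 genes were higher and 2 lower in hag2 nasp, 4 higher and 3 lower in msi2 msi3 nasp. CYP83B1, the indole counterpart of CYP83A1, went from 4915 ± 338 to 17277 ± 443 and 14034 ± 2533, by 1.82 ± 0.11 and 1.50 ± 0.11. CYP79B2, which makes indole aldoxime, rose by 1.15 ± 0.12 and 1.27 ± 0.12, and the indole regulator gene MYB51 rose by 1.07 ± 0.13 and 1.46 ± 0.13. Of 6 upstream regulators 5 were tested, and 5 rose in hag2 nasp, 4 in msi2 msi3 nasp. SLIM1, the regulator of sulfur limitation, rose by 0.43 ± 0.08 and 0.47 ± 0.08, MYC4 by 0.46 ± 0.09 and 0.38 ± 0.09, and SDI2 by 0.42 ± 0.12 and 0.38 ± 0.12, the latter call ending without wild type replicate 1. SDI1, known to hold MYB28 activity down under sulfur deficiency, rose by 1.65 ± 0.24 in hag2 nasp and differed by 0.24 ± 0.24 (adjusted p = 0.407) in msi2 msi3 nasp. MYC3 rose by 0.17 ± 0.06 and 0.15 ± 0.06, calls that ended with quantile normalization and without wild type replicate 1 or 3, hag2 nasp replicate 1 or 2, or msi2 msi3 nasp replicate 2 or 3. The second also ended when its groups were fitted alone. MYC2 was listed at 0 in all libraries, those of the wild type included. Lack of expression and reads not counted for the gene cannot be told apart here. The leaf, root and flower marker sums given above moved with all of these groups, and their part was not tested.

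**Figure D5:**
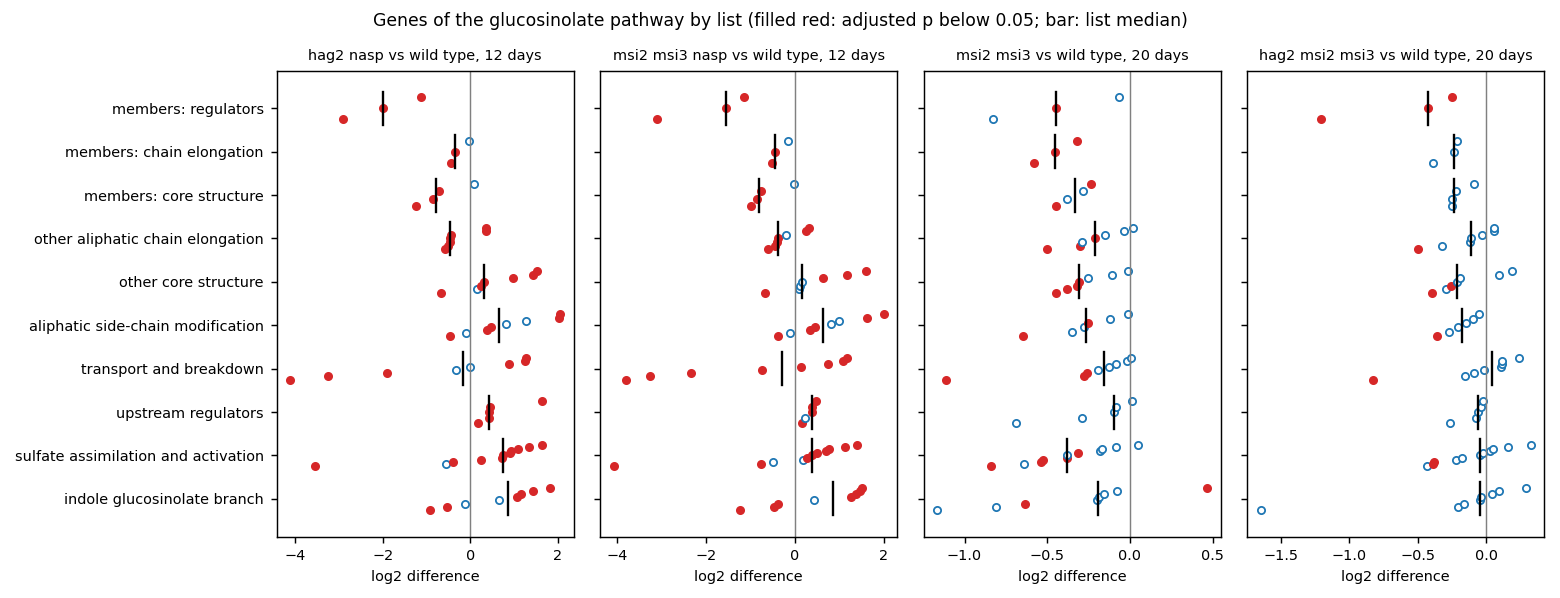
Log2 difference from the wild type of each gene in 10 lists of the glucosinolate pathway, 1 panel for each of 4 mutant groups with its own axis. Dots are genes, filled red where the adjusted p is below 0.05, and the black bar is the list median. In the nasp combinations the regulators, chain elongation and core structure members have negative medians while the sulfate and indole lists have positive ones, and in msi2 msi3 at 20 days all 10 medians are negative.

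In msi2 msi3 at 20 days 5 of 11 sulfate genes fell, 0 rose and 6 were not called, beside 4.15% of all genes called lower, and the list's median was -0.38. APR1 went from 3668 ± 41.1 to 2049.7 ± 72.5, by -0.84 ± 0.06 (adjusted p = 1.10e-06). APR3 changed by -0.53 ± 0.07 and APK1, which makes the sulfate donor of sulfotransferases, by -0.38 ± 0.07. Of the further chain elongation genes 3 of 7 fell and of the further core structure genes 4 of 7, with none risen. BASS5 changed by -0.50 ± 0.08, UGT74C1 by -0.45 ± 0.08 and SUR1, the C-S lyase gene, by -0.31 ± 0.06. In the indole branch MYB51 changed by -0.63 ± 0.09 and MYB34, another indole regulator gene, by 0.47 ± 0.10, the latter call ending without wild type or msi2 msi3 replicate 3. ESM1 fell in each group but nasp and the calls held under all alternatives, with differences of -0.67 ± 0.14 at 12 days and -0.83 ± 0.07 at 20 days in the libraries labelled hag2 msi2 msi3, and -1.11 ± 0.07 in msi2 msi3. In the 20-day libraries labelled hag2 msi2 msi3, BASS5 changed by -0.50 ± 0.08, APR1 by -0.39 ± 0.06 and APK1 by -0.38 ± 0.07.

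To find genes whose pattern was like that of the synthesis enzymes, the median log2 difference of the 7 enzyme genes in each of the 6 mutant groups was set against every gene with a mean of at least 20 in some group at both ages (18671 genes). The root-mean-square distance over the 6 groups was smallest for AT1G60990 (0.0603), AT5G40700 (0.0797), AT1G01080 (0.0878), PGL34 (AT3G58010, 0.0916) and FMO GS-OX1 (AT1G65860, 0.0941). FMO GS-OX1 is itself a gene of the pathway, an S-oxygenase of the side chain. PGL34 encodes a plastoglobulin. Of the 7 enzyme genes that made the median, MAM1 (0.0502) and BCAT4 (0.0617) lay closest to it and CYP79F1 (0.398) farthest. The regulators lay at 0.410 for MYB28, 0.775 for MYB29 and 1.53 for MYB76, and among all genes this closeness is a description over 6 differences that share wild type libraries.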

How the data were processed

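RNA from 24 libraries was sequenced as single-end 50-base reads (12 days) or paired-end 150-base reads (20 days), per the labels' protocols. The submitters' processing notes name bcl2fastq, HISAT2, edgeR and the build TAIR10, with no versions. The deposited tables, 1 for each age, hold a normalized signal per gene made by the authors from read counts; the values are not whole numbers, so depth is unknown and no count test was run. At 20 days, 72771 cells at a rounding floor were set to 0, and 0 columns were left unmapped. No 2 libraries held identical values.

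Each age was fitted alone with limma 3.58.1 (R 4.3.3; lmFit and eBayes with a trend) on log2(value + 1), with all groups of that age together and genes that reached 1 in 3 or more libraries. This kept 24305 genes at 12 days and 23707 at 20 days. Benjamini-Hochberg adjustment ran over all of them, with calls at an adjusted p below 0.05. Shares over all genes are shares of these calls. They were not taken for unadjusted p values or for groups that do not overlap. The pseudocount understates changes of low genes. The procedure was also run on simulated data in which few genes changed, unlike the nasp combinations, so that run says nothing about those. The 10 genes and the lists were chosen with earlier results of these data known. All 10 genes are named. Of each other list and comparison at most the 3 called genes with the lowest adjusted p are named, with the upstream regulators free of that limit, and a gene named in one nasp combination is given in both. The 5 most similar genes were ranked by the distance stated with them. Promoters and transcript lengths were read from the RefSeq TAIR10.1 assembly, in which all 10 genes matched by locus, with Python 3.11.15, pandas 2.3.3 and Biopython 1.88. Alternatives changed the pseudocount, filter, normalization, weights (voom), groups in the fit, replicate block and libraries. The voom alternative also scaled each library by its summed value, so it changed the normalization as well as the weights. Same-numbered libraries deviated together at correlations of -0.0557 to 0.0956, none above 0.1, so the numbers were not treated as pairs.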

Additional observations from a re-analysis of the deposited data

Results flagged for a closer look

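The difference of the libraries labelled hag2 msi2 msi3 from the wild type differed between the ages, by the interaction term, in 4 of the 10 genes. By the same term, 0.258% of all genes were called lower at 20 days and 0.564% higher. The change from 12 to 20 days was -0.39 ± 0.08 (log2 ± standard error, adjusted p = 0.0214 by limma) for MYB28, 1 of the main pair of regulators. It was -0.62 ± 0.12 (adjusted p = 0.0214) for MAM3, -0.63 ± 0.13 (adjusted p = 0.0246) for CYP79F1 and -0.45 ± 0.09 (adjusted p = 0.0335) for SOT18. Each call ended when certain single libraries were left out, 7 of 12 for MYB28 and for MAM3, 6 for CYP79F1 and 9 for SOT18. Without a filter on low values, MYB28 alone was called of the 10. Age, growth conditions, instrument, read type and table cannot be told apart here.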

How the results depend on the processing

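Of 1590 values of single genes under alternatives, 1522 kept their side of the threshold, 56 lost and 12 gained the call. With a call in either fit, 0 reversed direction. A change of direction between uncalled fits was counted as kept. Of the counts of called genes among the 10, 18 of 159 moved by over 1.5 times. With voom weights 1 gene was called in nasp in place of 0. With only the compared groups fitted, 2 were called in hag2 msi2 msi3 at 12 days in place of 1. With quantile normalization 5 were called in hag2 msi2 msi3 at 20 days in place of 3. Without a filter 1 was called for the difference between ages in place of 4. The cause of these moves was not tested. Leaving out single libraries gave 0 to 1 called in hag2 msi2 msi3 at 12 days, 1 to 4 at 20 days and 0 to 4 for the difference between ages.

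With the replicate number as a block, 8 genes were called in hag2 nasp, 8 in msi2 msi3 nasp, 6 in msi2 msi3, 2 with the hag2 msi2 msi3 label at 20 days and 3 for the difference between ages. The block ended the calls of MYB28 in hag2 msi2 msi3 at 20 days (adjusted p = 0.0592 by limma) and of SOT18 for the difference between ages (adjusted p = 0.0705). Over all genes, calls between the nasp combinations fell from 1539 to 814, and between the 20-day mutants from 281 to 177, with only those groups fitted. Those for the difference between ages fell from 188 to 103 without a filter and 124 with voom. Leaving out single libraries gave 519 to 721 in nasp (945 with all), 441 to 751 in hag2 msi2 msi3 at 12 days (982), 1078 to 1351 in msi2 msi3 (1802), 571 to 1308 for the 20-day hag2 msi2 msi3 libraries (1017), 911 to 1861 between the nasp combinations, 104 to 324 between the 20-day mutants and 94 to 314 for the difference between ages. With voom the higher and lower calls were 545 and 593 in nasp (608 and 337 without), 984 and 754 in msi2 msi3 (819 and 983), 497 and 508 for the 20-day hag2 msi2 msi3 libraries (612 and 405) and 142 and 91 between the 20-day mutants (242 and 39). The voom fits also scaled each library by its summed value, so these counts do not reflect the weights alone. Depth is unknown, so no counting limit can be given.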
